A study of Homo sapiens with 6 samples.

Results

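The genes described here are 5 chemokines, CXCL1, CXCL2, CXCL3, CXCL8 and CCL20, which were looked up by name in the deposited table and make up 5 of its 500 genes. CXCL1, CXCL2, CXCL3 and CXCL8 lie together on chromosome 4 (band 4q13), and CCL20 lies on chromosome 2. The comparison asks how their mRNA levels differed between RKO cells with and without SQLE depletion. RKO is an established human colorectal cancer cell line, and SQLE (squalene epoxidase) is an enzyme of cholesterol synthesis that turns squalene into (S)-2,3-epoxysqualene.

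RNA-sequencing was performed on 3 libraries of RKO cells expressing non-targeting shRNA (shNT, genotype WT in the labels) and on 3 libraries of RKO cells expressing shRNA against SQLE (shSQLE, genotype SQLE knockdown). Both groups were cultured in DMEM with serum, both carry a lentiviral shRNA construct, and the titles of both contain the tag Ctrl, which is not explained. The labels name no 5-FU treatment, whereas the text of the study places the comparison after 5-FU, so whether these cells had received the drug could not be settled. The labels number the libraries 1 to 3 in each group; the study also uses the names shSQLE-1 and shSQLE-2 for its hairpins, so which hairpin the sequenced cells carried is not certain, and an effect of the hairpin cannot be told apart from an effect of SQLE loss. No source says that the libraries came from separate cultures, so the p-values measure only the spread between these libraries, which may be technical.

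Chemokines are small secreted proteins that guide the migration of leukocytes. CXCL1, CXCL2, CXCL3 and CXCL8 (interleukin-8) carry the tripeptide Glu-Leu-Arg ahead of their CXC motif and attract neutrophils through the receptor CXCR2, and CXCL8 also through CXCR1. CCL20 binds the receptor CCR6 and attracts dendritic cells and subsets of T and B lymphocytes. In epithelial cells all of them are classical NF-κB target genes: the inhibitor IκBα holds NF-κB in the cytosol, and its degradation lets NF-κB enter the nucleus and bind sites close to the transcription start of these genes.

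The stretch of 150 bases ahead of the transcription start is shown for each gene, since NF-κB sites of chemokine genes lie there. The sequences are from RefSeq on GRCh38.p14 and run 5′ to 3′ toward the start, and all 5 genes were matched by symbol. The RefSeq starts of CXCL8, CXCL2, CXCL3 and CCL20 lie inside the longer GENCODE genes given further on. The stretches of CXCL8, CXCL2 and CXCL3 therefore lie in part, and that of CCL20 as a whole, within the GENCODE gene, as do all the capitals of CXCL2, CXCL3 and CCL20. Capitals mark each match to GGNNNTTCC, letters that many NF-κB sites hold, on either strand.
CXCL8 promoter, chr4:73740419-73740568, plus strand: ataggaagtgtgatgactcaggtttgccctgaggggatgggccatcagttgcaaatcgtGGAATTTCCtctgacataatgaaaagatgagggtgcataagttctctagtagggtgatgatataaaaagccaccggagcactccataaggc
CXCL1 promoter, chr4:73869243-73869392, plus strand: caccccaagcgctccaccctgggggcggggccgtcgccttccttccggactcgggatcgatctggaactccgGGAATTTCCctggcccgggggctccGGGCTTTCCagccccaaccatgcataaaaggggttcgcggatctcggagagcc
CXCL2 promoter, chr4:74099196-74099345, minus strand: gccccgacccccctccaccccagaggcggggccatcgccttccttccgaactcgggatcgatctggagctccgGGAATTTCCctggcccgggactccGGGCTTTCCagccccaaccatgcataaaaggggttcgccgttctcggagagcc
CXCL3 promoter, chr4:74038690-74038839, minus strand: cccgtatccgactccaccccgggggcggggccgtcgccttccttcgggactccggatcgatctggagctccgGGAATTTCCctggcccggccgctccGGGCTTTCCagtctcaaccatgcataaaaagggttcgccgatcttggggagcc
CCL20 promoter, chr2:227813692-227813841, plus strand: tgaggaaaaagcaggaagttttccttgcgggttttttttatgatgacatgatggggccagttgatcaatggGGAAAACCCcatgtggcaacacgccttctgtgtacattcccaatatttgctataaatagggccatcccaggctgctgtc

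The 4 CXC promoters shared the same 9 letters, GGAATTTCC, which began 91 bases ahead of the start in CXCL8, 78 in CXCL1 and CXCL3, and 77 in CXCL2. CXCL1, CXCL2 and CXCL3 each held a second match, GGGCTTTCC, 53 bases ahead of the start. The CCL20 promoter held GGAAAACCC 79 bases ahead of the start, which matched on the opposite strand. Thus 5 of 5 members held GGNNNTTCC in the window from 250 bases before to 50 bases after the start, whereas 23.5% of all 27305 genes with a RefSeq promoter did, as did 20.1% of all 35116 windows. GGAATTTCC, chosen for counting after it had been seen here, occurred in 0.560% of these genes. Only 347 of the 500 genes of the table have a promoter window. Among these, apart from the members, GGAATTTCC was found in NFKBIA and TNFRSF9, both called lower by the rule given further on. It was also found in CNKSR1, which was called higher (log2 fold change 1.11). The promoters of CXCL1, CXCL2 and CXCL3 were near-copies of each other, with 83.6% to 87.0% identical bases in global alignments, so their matches are not independent. TGANTCA, the letters of an AP-1 site, was found only in CXCL8 among the members, 137 bases ahead of the start, and in 7.71% of all windows. TATAAA was found in CXCL8 and CCL20 and in 11.5% of all windows. A looser form of the NF-κB letters, GGNNNNCCC, was present in all 5 members but also in 52.8% of all windows, and it overlapped the sites above in CXCL1, CXCL2, CXCL3 and CCL20. Letter matches are descriptions of the reference sequence, and no binding was measured.

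**Figure D1:**
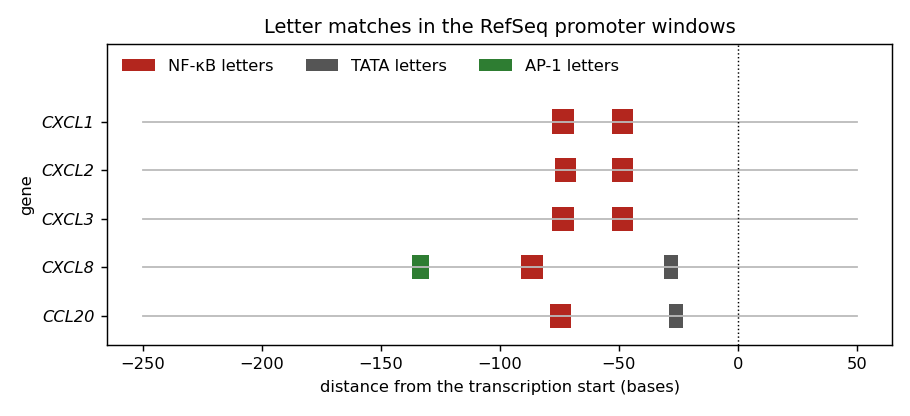
Matches to GGNNNTTCC (red), TGANTCA (green) and TATAAA (grey) in the promoter windows of the 5 chemokines, plotted by distance in bases from the transcription start (dotted line). Red blocks begin between 91 and 53 bases ahead of the start in every gene, and the single AP-1 match is in CXCL8.

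The deposited signal values behave as pseudo-counts, that is, read counts moved to one common library size. All 3000 values could be worked back to whole reads within 0.01, and these reads summed to between 117410 and 233404 per library over the 500 genes, which is not the sequencing depth. The third shSQLE library was the smallest, with a relative library size of 0.797 against 0.924 to 1.13 for the other libraries. SQLE mRNA was 6953 ± 25.1 pseudo-counts (SD, n = 3) in shNT and 302 ± 5.50 in shSQLE, and 4.35% of it was left. Of 5 epithelial markers none is among the 500 genes, so the cell type label could not be checked. The macrophage or monocyte marker ITGAM (1 of 6 such markers in the table) reached at most 9.88 pseudo-counts and the endothelial marker VWF (1 of 3) at most 14.0, and no neutrophil (0 of 3) or fibroblast marker (0 of 5) is in the table. ITGAM and VWF were higher in every shNT library than in any shSQLE library, and their part in the results was not tested.

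All 5 chemokines were lower in SQLE-depleted cells. CXCL8 and CCL20 fell the most and CXCL3 the least, with CXCL1 and CXCL2 in between. Of the shNT level 3.50% was left for CXCL8, 21.0% for CXCL2, 22.5% for CXCL1 and 44.6% for CXCL3, while CCL20 was down to 1 read in the shSQLE group. The call rule was an adjusted p below 0.05 in limma on log2(pseudo-count + 1), together with a log2 fold change of 1 or more, up or down. On this rule 5 of 5 members were called lower, and in 5 of 5 the highest shSQLE library was below the lowest shNT library. These counts have to be read against a table that holds only genes the authors had already selected as changed on the same libraries: 71.9% of the 473 genes tested were called lower, and 69.6% had all shSQLE libraries below all shNT libraries. The adjusted p-values below were computed over these 473 genes only. Since the genes had been selected on the same libraries, these p-values are descriptive and are not error rates. For each member alone the exact two-sided permutation test gave p = 0.1, the smallest that 3 against 3 libraries allow. In bulk RNA, fewer producing cells and less mRNA per cell cannot be told apart.

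**Figure D2:**
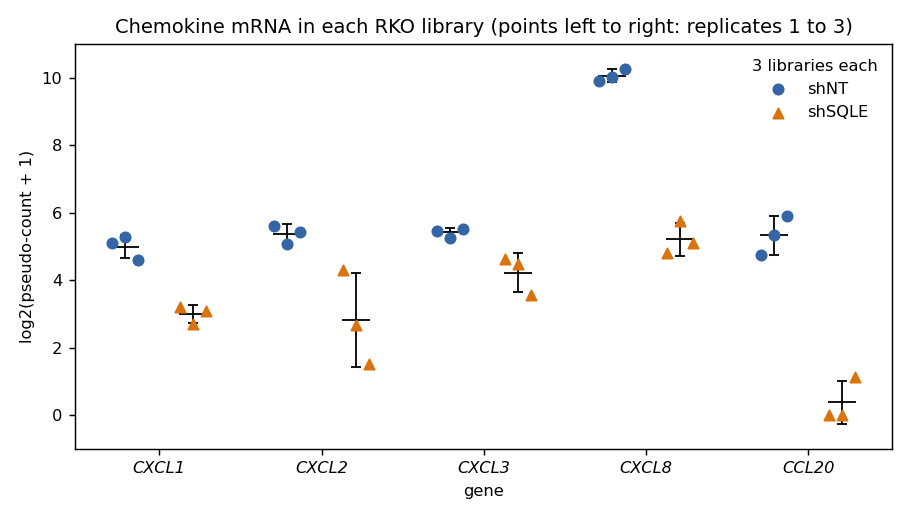
Level of each chemokine in each library, as log2(pseudo-count + 1); circles are the 3 shNT and triangles the 3 shSQLE libraries, with the mean and SD of each group as black bars. No group of triangles overlaps its circles, CXCL8 stands highest in shNT, and the shSQLE values of CXCL2 spread the most. CCL20 is at 0 in the first and second shSQLE libraries.

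CXCL8, the main neutrophil-attracting chemokine of epithelial cells, was by far the most abundant member. It is encoded on chromosome 4 of GRCh38, from 73740506 to 73743716, plus strand (GENCODE release 29). Its pseudo-counts were 955, 1037 and 1230 in shNT libraries 1 to 3 and 26.7, 53.0 and 33.1 in shSQLE libraries 1 to 3. Every shSQLE library was thus far below the lowest shNT library, and the second shSQLE library was the highest of its group. The mean in shNT was 1074 ± 141 and that in shSQLE 37.6 ± 13.7 (SD, n = 3 each), a 28.6-fold difference. Over 3304 reads in shNT and 113 in shSQLE, the exact 95% binomial interval of that fold was 23.7 to 34.8; this interval and those below cover counting error only. The log2 fold change was -4.85 ± 0.237 (SE), with an adjusted p from limma of 6.51e-07. Leaving out each library in turn gave values from -5.12 to -4.64.

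CCL20, the ligand of CCR6, was nearly lost. It lies on chromosome 2, from 227805739 to 227817564, plus strand. Its pseudo-counts were 26.1, 39.1 and 59.1 in shNT and 0, 0 and 1.17 in shSQLE. In reads these were 26, 36 and 66 against 0, 0 and 1. The shNT libraries differed from each other by 2.27-fold, the widest range of any member in that group, yet the lowest of them was still far above the highest shSQLE library. With 1 read in all in shSQLE, the ratio of reads was 125-fold with an exact 95% interval of 22.1 to 4982, so its size is poorly fixed from above. The log2 fold change was -4.96 ± 0.537 (SE), with an adjusted p from limma of 6.26e-05. This value depends on the pseudocount: with 5 in place of 1 it was -3.05, and with 0.1 it was -7.39.

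CXCL1, CXCL2 and CXCL3 encode the growth-regulated proteins alpha, beta and gamma, close relatives that share CXCR2. CXCL1 lies on chromosome 4 from 73869393 to 73871242 on the plus strand. Its pseudo-counts were 33.1, 37.6 and 23.4 in shNT and 8.19, 5.46 and 7.50 in shSQLE. The shSQLE libraries lay close together and all were below the lowest shNT library, here the third. The mean went from 31.4 ± 7.27 to 7.05 ± 1.42 (SD, n = 3 each), from 95 reads to 21. The log2 fold change was -1.998 ± 0.381 (SE), with an adjusted p from limma of 0.00174, and it stayed between -2.19 and -1.85 with each library left out.

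CXCL2 lies on chromosome 4 from 74097035 to 74099293 on the minus strand. Its pseudo-counts were 48.1, 32.7 and 42.4 in shNT and 18.6, 5.39 and 1.85 in shSQLE. The shSQLE libraries differed by 10.1-fold from the highest to the lowest, more than for any other member with reads in every library, although the highest of them was still below all shNT libraries. In reads they were 20, 6 and 1. The mean in shNT was 41.1 ± 7.76 and that in shSQLE 8.61 ± 8.82 (SD, n = 3 each), so the shSQLE mean was smaller than its own SD. The log2 fold change was -2.55 ± 0.650 (SE), with an adjusted p from limma of 0.00756. It was -3.28 without the first shSQLE library and -1.89 without the third, and the direction was the same in both.

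CXCL3 lies between them on chromosome 4, from 74036589 to 74038807 on the minus strand. Its pseudo-counts were 43.1, 37.0 and 45.1 in shNT and 23.7, 21.3 and 10.9 in shSQLE. The shNT libraries were the most even of all members, and all shSQLE libraries were below them, the third the lowest. The mean in shNT was 41.7 ± 4.25 and that in shSQLE 18.6 ± 6.83 (SD, n = 3 each), from 128 reads to 57. The log2 fold change was -1.19 ± 0.350 (SE), with an adjusted p from limma of 0.0137. This call rested on the third shSQLE library, which was also the smallest: without it the log2 fold change was -0.86 and no longer past the fold threshold. The call was also lost with an adjusted p below 0.01 as the limit. The median log2 fold change of all genes tested was -1.38, and 61.5% of them fell by more than CXCL3 did, whereas the median of the 5 members was -2.55.

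**Figure D3:**
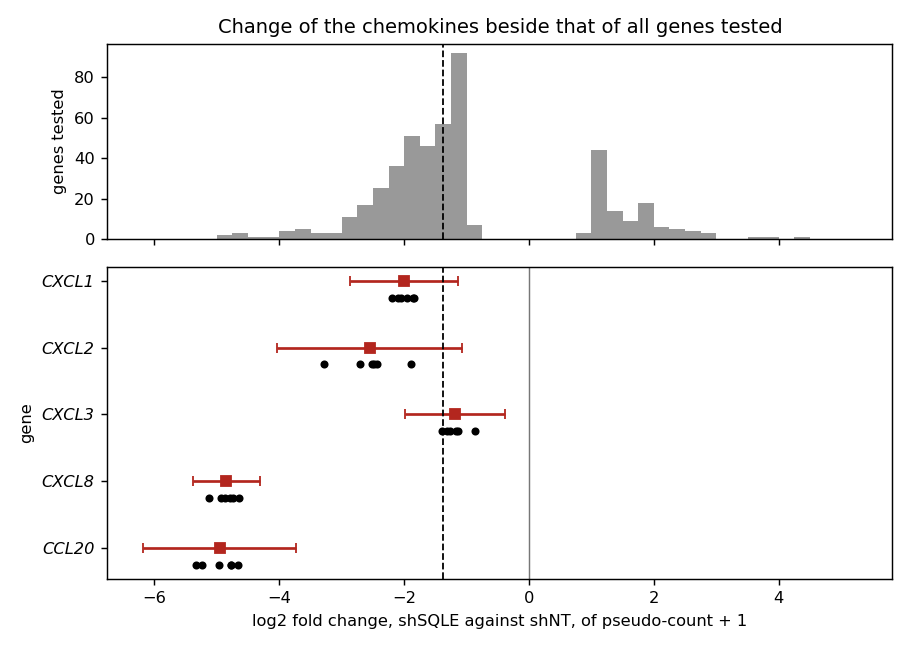
Top, log2 fold changes of the 473 genes tested, with their median of -1.38 as a dashed line; the gap around 0 is there since the table holds only selected genes. Bottom, log2 fold change of each chemokine with its 95% confidence interval from limma (squares and bars) and, below each, the values with 1 library left out (dots); CXCL8 and CCL20 lie near -5, and CXCL3 lies near the median.

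Between genes, levels were compared per kilobase of the longest protein-coding transcript in GENCODE release 29. In shNT cells, CXCL8 had 630 ± 82.7 pseudo-counts per kilobase (SD, n = 3), and every library was far above those of the next gene. CCL20 (49.4 ± 19.8), CXCL3 (38.8 ± 3.95), CXCL2 (33.7 ± 6.37) and CXCL1 (28.6 ± 6.63) followed in that order. The ranges of neighbours among these 4 overlapped, so their full order is not resolved. CXCL3 exceeded CXCL2 in 3 of 3 shNT libraries, while the other neighbours among these 4 kept their order in 2 of 3. In shSQLE cells the order was CXCL8 (22.1 ± 8.05), CXCL3 (17.3 ± 6.35), CXCL2 (7.07 ± 7.24), CXCL1 (6.43 ± 1.29) and CCL20 (0.467 ± 0.809). Here only CXCL1 and CCL20 were neighbours with separate ranges. CXCL8 therefore no longer stood apart from CXCL3, which it exceeded in 2 of 3 shSQLE libraries.

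The make-up of the chemokine mRNA also differed between the groups, although no share could pass a test with 3 against 3 libraries. Of the summed pseudo-counts per kilobase of the 5 genes, CXCL8 made up 79.9%, 81.1% and 81.1% in shNT and only 25.9%, 51.6% and 49.4% in shSQLE. CXCL3 went from 5.72%, 4.58% and 4.72% to 36.5%, 32.8% and 25.7%. Thus CXCL3, a minor member in control cells, was second to CXCL8 in 2 shSQLE libraries and first in the other. The share of CXCL1 went from 3.76% ± 1.19 to 12.7% ± 4.58 on average (SD, n = 3 each), that of CCL20 went from 6.18% ± 1.74 to 1.19% ± 2.06, and that of CXCL2 overlapped between the groups. Over the 5 shares the exact permutation test gave p = 0.1 for CXCL8, CXCL3, CXCL1 and CCL20 (adjusted 0.125) and p = 0.3 for CXCL2, which does not pass the threshold. The shares of 1 library add up to 100%, so they do not move independently.

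**Figure D4:**
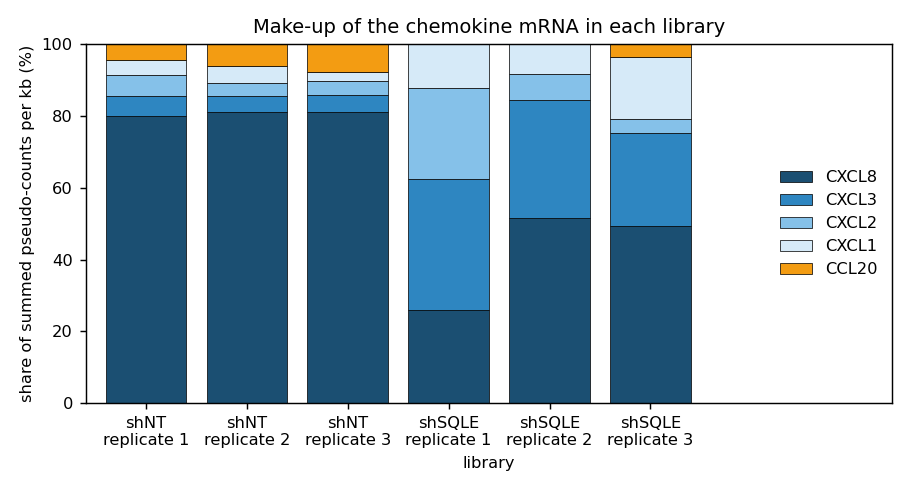
Share of each chemokine in the summed pseudo-counts per kilobase of the 5 genes, in percent, for each of the 6 libraries. CXCL8 fills about 80% of each shNT bar (79.9% to 81.1%) and 25.9% to 51.6% of the shSQLE bars, where CXCL3 takes 25.7% to 36.5%.

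Whether 2 members changed by different amounts was examined from their difference on the log2(pseudo-count + 1) scale within each library, over all 10 pairs. The groups did not overlap for 6 pairs. The decrease of CXCL8 was larger than that of CXCL3 by 3.66 log2 units, than that of CXCL1 by 2.85 and than that of CXCL2 by 2.30. The decrease of CCL20 was larger than that of CXCL3 by 3.77 and than that of CXCL1 by 2.96. With reads of 0, 0 and 1 for CCL20 in shSQLE, these sizes follow the pseudocount: with 5 they were 2.02 and 1.47, and with 0.1 they were 6.16 and 5.26. For CXCL2 minus CXCL3 the difference was -1.36. For these 6 pairs the exact permutation test gave p = 0.1 each, and 0.167 after Benjamini-Hochberg adjustment over the 10 pairs, so none passed a threshold of 0.05, which 3 against 3 libraries cannot reach. The differences between CXCL8 and CCL20 (0.11 log2 units), CXCL1 and CXCL2 (0.55), CXCL1 and CXCL3 (-0.81) and CXCL2 and CCL20 (2.41) overlapped between the groups, the last with a wide spread in shSQLE (SD 1.96) and with values of 1.11 at a pseudocount of 5 and 4.60 at 0.1. The sign between CXCL8 and CCL20 is not fixed: CXCL8 minus CCL20 was -1.65 with a pseudocount of 5, where the groups did not overlap, and 2.51 with 0.1. These pairs were not separated with a pseudocount of 1, which does not show that they changed alike.

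CXCL1, CXCL2 and CXCL3 are similar enough for reads to be split between them. Of the 50-mers of their longest protein-coding transcripts, 5.73%, 9.24% and 5.26% also occurred in transcripts of another gene, most of them in CXCL1 or CXCL2, whereas 0% did so for CXCL8 and CCL20. The transcripts of CXCL1 and CXCL2 had 90.6% identical bases in a global alignment, and those of CXCL3 had 81.8% with CXCL1 and 83.4% with CXCL2. By the same measure, which leaves out gaps, the pairs with CXCL8 or CCL20 had 65.7% to 73.8%. The description field of the CXCL2 row in the table names ligand 1 of the family, although its ID is CXCL2. The summed level of the 3 genes does not depend on how reads were divided, provided that each shared read was counted for 1 of them. The counting is not given, so whether shared reads were dropped or counted for several genes is not known. The sum was 124, 107 and 111 pseudo-counts in shNT and 50.5, 32.1 and 20.2 in shSQLE. All shSQLE sums lay below all shNT sums, with means of 114 ± 8.92 and 34.3 ± 15.3 (SD, n = 3 each) and 30.0% left. The exact permutation test gave p = 0.1, the smallest possible. Over 349 and 105 reads the exact 95% interval of the share left was 24.5% to 38.4%, against 2.87% to 4.22% for CXCL8 by the same kind of interval, so by counting error alone the 3 genes together fell less than CXCL8.

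The 4 CXC genes share one stretch of chromosome 4. From CXCL8 to CXCL2 it spans 359 kb and holds 9 protein-coding genes in RefSeq, and the other 5 (CXCL6, PF4V1, PF4, PPBP and CXCL5) are not analysed here. In order along it, the log2 fold changes were -4.85 for CXCL8, -1.998 for CXCL1, -1.19 for CXCL3 and -2.55 for CXCL2. The decrease thus became smaller from CXCL8 through CXCL1 to CXCL3, and CXCL2 alone departed from this order. With each library left out in turn, CXCL2 lay between -3.28 and -1.89 and CXCL3 between -1.39 and -0.86. The difference between CXCL1 and CXCL3 overlapped between the groups. Whether the decrease was related to position was not tested with these 4 genes.

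Other genes of the pathway were taken from lists that were written with earlier results of these data known, and their counts are given as a description. Of 57 listed names of other chemokines and chemokine receptors, which include aliases, CCL3 alone is in the table. Neither CXCR1, CXCR2 nor CCR6, the receptors of the 5 members, is analysed here. CCL3, which attracts monocytes, had 8.01, 3.30 and 2.53 pseudo-counts in shNT and 0, 0.938 and 0.0179 in shSQLE. It was called lower (log2 fold change -2.04, adjusted p = 0.00584 by limma), but at such low levels it could not be tested, or lost its call, under 5 of the alternatives.

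Of 41 regulators of NF-κB, AP-1 and C/EBP activity, 6 are in the table, and all 6 were called lower, against 71.9% of all genes tested. Their median log2 fold change of -1.51 was close to the -1.38 of all genes tested, so neither value sets them apart in this table. They include the feedback inhibitors NFKBIA (IκBα) and TNFAIP3 (A20), the signalling adaptor TRAF1, the ubiquitin ligase BIRC3 and the transcription factors ATF3 and CEBPB. NFKBIA had 2702 ± 134 pseudo-counts in shNT against 1186 ± 85.5 (SD, n = 3 each), and TNFAIP3 had 754 ± 35.5 against 248 ± 26.6. Their log2 fold changes were -1.19, the same to 2 decimals as that of CXCL3, and -1.60. These values are of mRNA, whereas by immunoblot the study reported more IκBα protein after SQLE depletion. CEBPB, whose protein binds the CXCL8 promoter, had 2954, 1352 and 2459 pseudo-counts in shNT and 840, 733 and 591 in shSQLE, a log2 fold change of -1.58 ± 0.262 (SE), with an adjusted p from limma of 0.00086.

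Of 40 inflammatory genes that share inducers with the chemokines, 10 are in the table and all 10 were called lower, against 71.9% of all genes tested, with a median log2 fold change of -3.12 against -1.38. The groups did not overlap for 9 of them, against 69.6% of all genes tested, the exception being CSF2. With an adjusted p below 0.01 in limma, 8 of the 10 were called lower, against 203 of the 473 genes tested. Of the matrix metalloproteinases, MMP3 kept 3.92% of its shNT level, close to the 3.50% of CXCL8, while MMP10 kept 7.01% and MMP1 28.0%. Complement C3 kept 3.62% and the receptor IL7R 3.72%, both on few reads in shSQLE. INHBA, a subunit of activin, was read 26, 25 and 23 times in shNT but 0, 0 and 2 times in shSQLE. IL1A, a cytokine that induces CXCL8, had 16.5 ± 8.81 pseudo-counts in shNT against 4.64 ± 1.54 (SD, n = 3 each), and CSF2, a myeloid growth factor, had 13.8 ± 10.1 against 1.57 ± 1.91. The protease PLAU (log2 fold change -1.09) and the receptor TNFRSF9 (-1.85) complete the list. None of the genes in these lists was called higher.

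**Figure D5:**
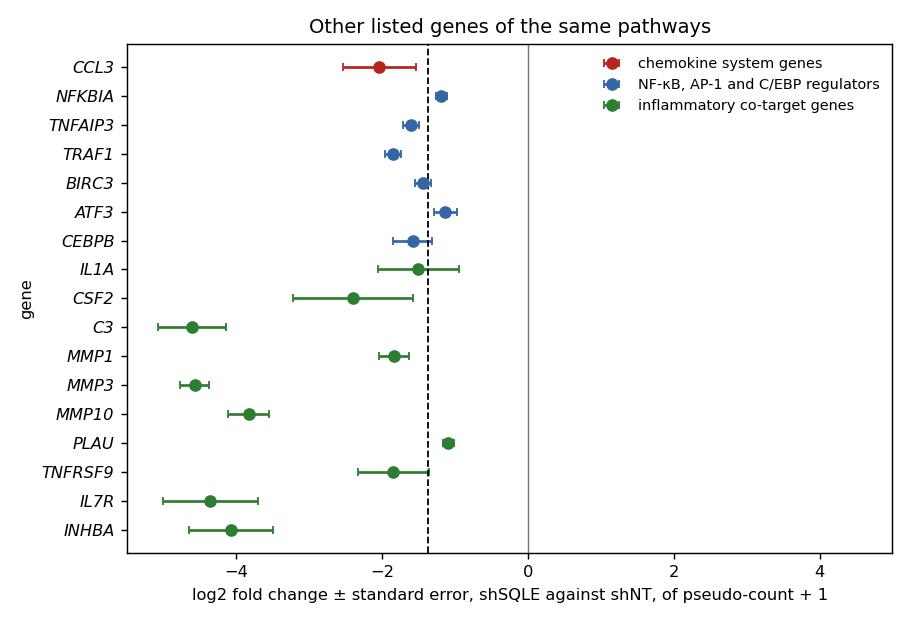
Log2 fold change of the 17 listed genes other than the 5 chemokines, with standard errors from limma; red is the chemokine system, blue the regulators and green the inflammatory genes, and the dashed line is the median of all genes tested (-1.38). All lie below 0, and C3, MMP3, IL7R, INHBA and MMP10 lie farthest from it.

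To find genes with a pattern most like that of each member, the root-mean-square difference over the 6 libraries was computed between log2(pseudo-count + 1) profiles set to a shNT mean of 0, over 342 other genes with at least 10 pseudo-counts in shNT. For CXCL8 the nearest genes were SQLE itself (0.39 log2 units) and MMP3 (0.44). For CCL20 they were MMP3 (0.53) and CXCL8 (0.57). CXCL1 was nearest to TRIML2 (0.16) and MSN (0.24), CXCL2 to MCEMP1 (0.38) and SLC9A9 (0.45), and CXCL3 to the histone gene HIST1H3E (0.14) and to AHRR (0.18). Among the 2 nearest genes of each member, the only other member was CXCL8, second for CCL20. With 342 genes to choose from, these short lists do not show whether the members behaved alike. With 1 read of CCL20 in shSQLE, its distances depend on the pseudocount of 1, and no other was run here. The likeness rests on 6 libraries and mostly on the size of the change between the groups.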

How the data were processed

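RNA-sequencing was performed by the authors on 6 libraries of RKO cells, 3 shNT and 3 shSQLE, grouped by their labels. The authors deposited 1 table with a normalised signal per gene and library, and with their own fold changes and p-values, which were not used beyond establishing that all 500 genes had passed 0.05 on the adjusted p and a change of 1 on the log2 scale. The counting, strand setting and test are not given in the sources used here. The submitters' processing notes name the aligner Bowtie 0.12.2 and the mouse build mm8, without a role, although the cells and gene names are human; what this means for the values is not known.

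Whole reads were worked back per group from the deposited signal by inverting a quantile adjustment under a negative binomial model (dispersion 0.00485) and were tested on simulated data. Groups were compared by limma 3.58.1 in R 4.3.3 with a mean-variance trend, without covariates, on log2(signal + 1). The filter was at least 1 in at least 3 libraries, which left 473 genes, with Benjamini-Hochberg adjustment over them. On that scale the change of a gene with few reads comes out too small. Alternatives were other pseudocounts, filters, variance models and thresholds, limma-voom on whole reads, each library left out and a replicate block. The total depth is unknown, so no share of a library is given.

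The members, lists and tests were chosen with earlier results of these data known. Named are the members, SQLE, the list genes in the table, the marker genes in the table and the 2 genes most like each member. Gene positions, transcripts (206694 searched for shared 50-mers) and lengths are from GENCODE release 29 on GRCh38, and promoters from RefSeq on GRCh38.p14. Only 347 of the 500 gene names have a promoter window there, so a motif share over the table was void. Python 3.11.15 with SciPy 1.17.1 and Biopython 1.88 was used for the other steps.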

Additional observations from a re-analysis of the deposited data

How the results depend on the processing

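All 5 chemokines kept their direction under every alternative that was run, and CXCL1, CXCL2, CXCL8 and CCL20 also kept their call. CXCL3 lost its call in 2 of 15 alternatives: without the third shSQLE library, where its log2 fold change was -0.86 (adjusted p = 0.0254 by limma), and with a threshold of 0.01 on the adjusted p. Over its 13 alternative fits in limma the adjusted p of CXCL3 ranged from 0.0104 to 0.0371. With each library left out in turn, 4 or 5 chemokines were called lower, and log2 fold changes lay between -1.39 and -0.86 for CXCL3 and between -3.28 and -1.89 for CXCL2. An adjusted p under 0.01 in place of 0.05 left 203 genes called lower instead of 340, 4 of 5 chemokines and 8 of 10 inflammatory genes, and leaving out libraries left 232 to 295, with fewer genes tested. CCL3 was not called with a pseudocount of 5, could not be tested with at least 10 required in at least 3 libraries, and could not be tested in the 3 fits without 1 of the shNT libraries, which gives 0 other chemokine system genes called lower there and 0 to 1 over the 6 fits. Member pairs whose groups did not overlap numbered 6 to 8 over the 9 alternatives run on them. Deviations of libraries 1, 2 and 3 of the 2 groups from the group means correlated at 0.0806, 0.0416 and 0.0919 over genes. Each library correlated best with its own number, but all of these values were under 0.1, and the main fit had no pairing. With a replicate block, 333 genes and all 5 chemokines were called lower, with CXCL3 at an adjusted p of 0.0225 by limma. In limma-voom on the whole reads, 338 genes were called lower and 96 higher. Of the 10 inflammatory genes 8 to 10 were called with a library left out. Few reads limit CCL20, CXCL2 and CXCL1 in shSQLE. Another library scaling was not run, since every gene here was selected as changed.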

Other observations

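The library that was highest within a group differed between members. In shNT, the third library was the highest for CXCL8, CCL20 and CXCL3 and the lowest for CXCL1, and the first was the highest for CXCL2. In shSQLE, the first library was the highest for CXCL1, CXCL2 and CXCL3, the second for CXCL8 and the third for CCL20. Among regulators, the second shNT library had the lowest CEBPB (1352 pseudo-counts), and it also had the lowest CXCL2 and CXCL3 of its group, at 32.7 and 37.0, but the highest CXCL1, at 37.6. With 3 libraries a group, no relation between these values was tested.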
